A study of Mus musculus with 8 samples.

Results

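The 7 genes described here, Crispld2, Ccn4, Esm1, Sema6d, Epcam, St8sia1 and Ccno, encode secreted proteins, cell surface proteins, a glycolipid enzyme and a cyclin. They are 7 of the 50686 genes in the count table. They were picked because their counts rose with E47-ER in these same libraries and because they are not part of the known type 2 innate lymphoid cell programme. Their E47-ER against GFP values are therefore a description of what they were chosen for, carry no test and support nothing. All 7 passed the filter on low counts, which kept 13644 genes.

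Every library came from total RNA of type 2 innate lymphoid cells (ILC2) of the thymus of plck-Id1 mice on the C57BL/6 background, which carry an Id1 transgene under the T-lineage lck promoter. The cells had been stimulated with cytokines that included IL-33, IL-25 and IL-7, transduced with the MIGR1 retrovirus, sorted for GFP and expanded before 4-hydroxytamoxifen was added. The 4 groups of 2 libraries each were GFP alone for 4 h, E47-ER for 4 h, GFP alone for 16 h and E47-ER for 16 h. All of them, controls included, thus carried the Id1 transgene and received the drug, and no E47-ER library without the drug was among them. Whether the 2 libraries of a group are from different mice or cultures is not in the labels. The p-values thus reflect library-to-library spread alone, and that spread may be technical.

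E47 is a product of Tcf3 and belongs to the E proteins, basic helix-loop-helix factors that bind DNA as dimers at E-boxes, short motifs written CANNTG. Id1 pairs with E proteins and keeps them off DNA. In E47-ER the factor is fused to the hormone-binding part of the estrogen receptor, and stays inactive until 4-hydroxytamoxifen is added. ILC2 are tissue-resident lymphocytes known for making type 2 cytokines, and the study asked, as its groups show, which genes answer to E47 in them.

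Totals ran from 8813782 to 18677675 counts per library. Levels are CPM, counts per 1000000 of TMM-scaled library size, and fold changes are log2 values of edgeR's quasi-likelihood model with their standard errors (SE). The construct was seen in the reads. Esr1, the estrogen receptor gene, went from a mean of 0.264 to 49.1 CPM at 4 h. At 16 h it went from 0.735 to 49.1 CPM. Tcf3 went from 80.4 to 157 and from 77.6 to 158 CPM. Id1 was not level between the transductions. It stood at 36.79 and 23.67 CPM with GFP and 66.43 and 59.87 with E47-ER at 4 h. At 16 h the values were 30.03 and 13.85 against 81.40 and 67.65 CPM. Id1 was not called by edgeR's test with all libraries. Whether its reads came from the transgene was not tested. All 15 ILC2 markers listed passed the filter, and their summed level lay between 25458 and 27696 CPM with GFP and between 22765 and 23162 with E47-ER at 4 h, and between 25174 and 31738 and between 21072 and 21407 CPM at 16 h. The library GFP 16 h replicate 2 stood apart: it correlated with the rest at a mean of 0.954, where the others had 0.980 to 0.983, and its TMM factor was 0.854 against 1.01 to 1.03. Its ratio to GFP 16 h replicate 1 moved with transcript length, with a median log2 ratio of 0.42 over the 4542 tested genes with the shortest exon length and -0.26 over the 4543 with the longest. The fitted 16 h values of the 7 genes are therefore given with and without it, as are those of other genes where leaving it out changed the call.

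Over all genes, edgeR's quasi-likelihood test called 0.271% of the 13644 as higher with E47-ER at 4 h and 0.0147% as lower, and 1.25% higher and 0.337% lower at 16 h (adjusted p under 0.05). In either direction these were 0.286% at 4 h and 1.59% at 16 h, and 4.33% and 8.92% of 14146 genes without GFP 16 h replicate 2. For each of the 7 genes, all 4 E47-ER libraries lay above all 4 GFP libraries in CPM, a property of 7.86% of the tested genes (22.4% had both E47-ER libraries above both GFP libraries at 4 h and 27.8% at 16 h). Since the genes were chosen for this rise, nothing is read from that count. By the size of the log2 fold change at 4 h their ranks among tested genes were 9 for Ccn4, 28 for Crispld2, 36 for Sema6d, 39 for St8sia1, 49 for Ccno, 59 for Esm1 and 291 for Epcam.

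The promoter windows of the 4 genes to which the results return most, Ccno and Esm1 as neighbours on 1 chromosome, Epcam for its epithelial partners and St8sia1 for the glycolipid pathway, are shown to let E-boxes be seen in place. RefSeq windows on GRCm38.p6, from 250 bases before to 50 bases after the start site, were found for 6 of the 7 genes, with a pair of windows for Sema6d. Each is written 5′ to 3′ on the gene's strand, and capitals mark every match to CANNTG. The windows are chr13:112987552-112987851 (plus strand) for Ccno, chr13:113209409-113209708 (plus strand) for Esm1, chr17:87635729-87636028 (plus strand) for Epcam and chr6:142964403-142964702 (minus strand) for St8sia1.
Ccno: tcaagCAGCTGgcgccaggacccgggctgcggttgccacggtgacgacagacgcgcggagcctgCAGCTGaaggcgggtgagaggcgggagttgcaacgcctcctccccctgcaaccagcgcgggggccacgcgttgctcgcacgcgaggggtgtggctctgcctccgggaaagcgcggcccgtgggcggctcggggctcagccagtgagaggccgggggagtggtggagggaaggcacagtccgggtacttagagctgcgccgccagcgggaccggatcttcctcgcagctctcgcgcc
Esm1: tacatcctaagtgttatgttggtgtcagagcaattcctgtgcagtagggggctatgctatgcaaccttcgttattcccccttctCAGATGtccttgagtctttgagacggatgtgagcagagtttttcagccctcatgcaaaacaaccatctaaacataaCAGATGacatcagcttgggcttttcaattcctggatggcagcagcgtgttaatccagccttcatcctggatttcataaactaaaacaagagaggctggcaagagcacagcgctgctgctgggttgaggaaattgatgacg
Epcam: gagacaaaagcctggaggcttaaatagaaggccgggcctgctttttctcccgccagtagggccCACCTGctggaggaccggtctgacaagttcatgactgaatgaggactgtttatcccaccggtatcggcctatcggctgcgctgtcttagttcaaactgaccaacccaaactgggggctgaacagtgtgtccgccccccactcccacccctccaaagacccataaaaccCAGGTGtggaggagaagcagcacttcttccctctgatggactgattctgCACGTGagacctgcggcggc
St8sia1: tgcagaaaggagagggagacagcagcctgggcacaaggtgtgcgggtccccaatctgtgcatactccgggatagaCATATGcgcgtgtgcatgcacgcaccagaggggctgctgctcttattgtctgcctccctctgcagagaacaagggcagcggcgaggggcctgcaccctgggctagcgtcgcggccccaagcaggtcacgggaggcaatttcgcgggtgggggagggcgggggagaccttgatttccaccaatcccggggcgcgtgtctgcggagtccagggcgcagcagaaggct
The Ccno window held CAGCTG at positions -245 and -186 from the start site. The Esm1 window held CAGATG at -166 and -90, the St8sia1 window CATATG at -175, and the Epcam window CACCTG at -187, CAGGTG at -19 and CACGTG at 31. The Crispld2 window held CACGTG at -235 and CACTTG at -201. Of the Sema6d windows, 1 held CACGTG at -23 and the other CAAATG at -220 and CAGGTG at -190. CANNTG reads as CANNTG on both strands, and 72.3% of all 32817 windows of this length held it at least once. CAGCTG, which is among those matches and also reads the same on both strands, was in 16.3% of windows and occurred at least 2 times in 1.9% of them. CAGGTG or its reverse complement CACCTG was in 20.2%. A match describes letters in a window and is not a binding site.

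**Figure D1:**
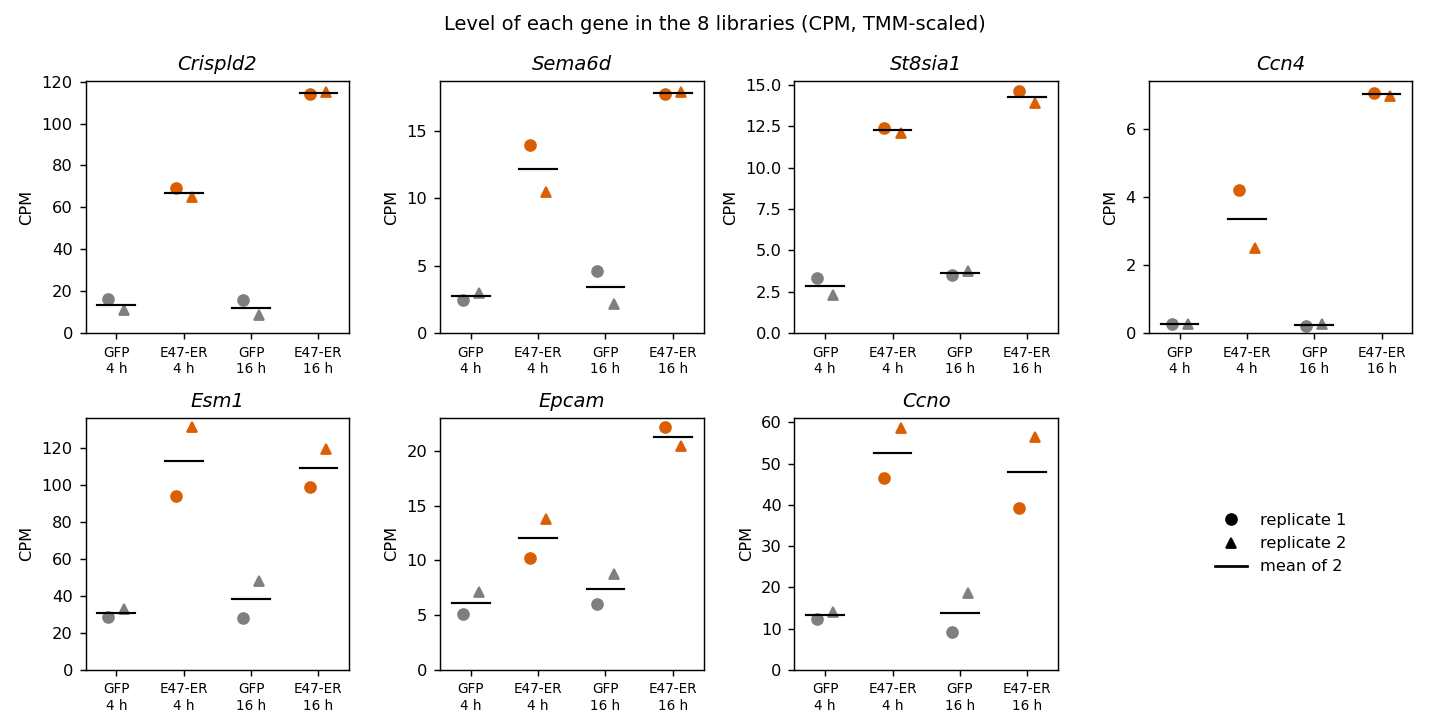
Level of the 7 genes in each library, as CPM on a linear axis from 0, with 1 panel per gene. Circles are replicate 1, triangles replicate 2 and lines the mean of 2, in grey for GFP and orange for E47-ER, and in every panel the E47-ER points lie above the GFP points.

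Of the secreted proteins, Crispld2 reached the highest CPM at 16 h with Esm1. Crispld2 (ENSMUSG00000031825, chr8:119992438-120052793, plus strand) encodes a secreted glycoprotein of the CAP superfamily. It stood at 16.1 and 10.9 CPM in the GFP libraries and 69.2 and 64.8 in the E47-ER libraries at 4 h, and at 15.7 and 8.39 against 114 and 115 CPM at 16 h. The E47-ER libraries were close to each other at each time, and the lowest of them was over every GFP library. The log2 fold change was 2.32 (SE 0.276) at 4 h and 3.21 (SE 0.289) at 16 h, and 2.86 (SE 0.167) at 16 h without the library that stood apart. Within E47-ER cells its level at 16 h was 1.71 times that at 4 h, while within GFP cells the ratio was 0.893.

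Ccn4 (ENSMUSG00000005124, chr15:66891320-66923201, plus strand) encodes a secreted matricellular protein of the CCN family, also known as WISP1 and described as a target of Wnt signalling. It was close to undetected in GFP cells, with 4 and 5 counts at 4 h and 3 and 2 counts at 16 h. In E47-ER cells it had 66 and 35 counts at 4 h and 106 and 121 at 16 h. These are 0.253 and 0.264 CPM against 4.22 and 2.52 at 4 h, and 0.202 and 0.266 against 7.08 and 6.98 at 16 h. Its log2 fold changes were the largest among the 7 genes, at 3.67 (SE 0.403) and 4.92 (SE 0.435), and 5.06 (SE 0.546) at 16 h without GFP 16 h replicate 2. The ratio of summed counts scaled by library size was 13.2 at 4 h, with a 95% exact binomial interval of 6.69 to 29.7, and 31.5 at 16 h, with an interval of 13.3 to 97.9. These intervals cover counting error only and are wide because the GFP side holds 9 and 5 counts.

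Esm1 (ENSMUSG00000042379, chr13:113209659-113218098, plus strand) encodes endocan, a secreted dermatan sulfate proteoglycan best known from endothelium. Its GFP libraries were at 28.8 and 33.1 CPM and its E47-ER libraries at 94.3 and 131 CPM at 4 h. At 16 h the values were 28.1 and 47.9 against 99.0 and 120 CPM. The groups did not overlap, but GFP 16 h replicate 2 was the highest GFP library. The log2 fold change was 1.87 (SE 0.270) at 4 h and 1.54 (SE 0.270) at 16 h, or 1.95 (SE 0.223) at 16 h without that library. The ratio of its means in E47-ER cells, 16 h over 4 h, was 0.970. The 13 endothelial markers summed to between 148 and 150 CPM in GFP cells and between 146 and 148 in E47-ER cells at 4 h, and to between 131 and 155 and between 160 and 175 at 16 h. Nearly all of this was Pecam1, and Cldn5 and Emcn had 0 counts in every library, while Cdh5 had 9 counts in all.

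Of the surface proteins, Sema6d (ENSMUSG00000027200, chr2:124089969-124667770, plus strand) is a transmembrane semaphorin that signals through plexin A1. Its levels were 2.47 and 2.96 CPM with GFP and 13.95 and 10.43 with E47-ER at 4 h, and 4.64 and 2.13 against 17.7 and 17.9 CPM at 16 h. Here GFP 16 h replicate 2 was the lowest GFP library, the opposite of its place for Esm1. The log2 fold changes were 2.16 (SE 0.312) and 2.31 (SE 0.315), and 1.93 (SE 0.233) at 16 h without it.

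Epcam (ENSMUSG00000045394, chr17:87635979-87651129, plus strand) encodes the epithelial cell adhesion molecule, which binds its like on the next cell. It had the smallest rise at 4 h of the 7 genes, from 5.12 and 7.08 CPM to 10.2 and 13.8 CPM. At 16 h it stood at 5.98 and 8.79 CPM with GFP and 22.2 and 20.4 CPM with E47-ER. The distance between the groups was wider at 16 h, where the lowest E47-ER library exceeded the highest GFP library by more than at 4 h. The log2 fold change was 0.97 (SE 0.255) at 4 h and 1.56 (SE 0.259) at 16 h, or 1.82 (SE 0.227) at 16 h without GFP 16 h replicate 2. Beside it, the 19 epithelial markers, of which 16 had any count and 4 passed the filter, summed to between 6.32 and 8.35 CPM with GFP and between 9.09 and 9.28 with E47-ER at 4 h. At 16 h they summed to between 7.86 and 10.5 CPM and between 12.7 and 16.3 CPM. Krt14, Cldn3 and Foxn1 were at 0 in every library, Krt5 had 2 counts in all, and the sum was led in E47-ER cells by Cdh1, E-cadherin. At 4 h Cdh1 was at 1.15 and did not pass with all libraries (adjusted p = 0.372 in edgeR). Its 4 h value without GFP 16 h replicate 2 was 1.15 too. Cdh1 was higher with E47-ER at 16 h, with a mean of 2.44 against 9.54 CPM. Its log2 fold change there was 1.93 (SE 0.306), with an adjusted p of 0.0249 in edgeR. It was called in 2 of 8 fits that each left out 1 library, those without either GFP 16 h library, and its highest adjusted p was 0.248. Without GFP 16 h replicate 2 it was at 1.79 (adjusted p = 5.62e-04). The other 3 tested epithelial markers did not pass. Krt18, at -0.76 and -0.32, and Cldn7, at -0.39 and -1.35, were below 0 at 4 h and 16 h. Grhl2 was at -0.06 at 4 h and, like Cdh1, above 0 at 16 h, at 0.43. In bulk RNA more cells of a type and more RNA per cell cannot be told apart, and the part of other cells in the Epcam values was not tested.

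St8sia1 (ENSMUSG00000030283, chr6:142821545-142964452, minus strand) encodes GD3 synthase, the sialyltransferase that adds a sialic acid to the ganglioside GM3. It stood at 3.35 and 2.33 CPM with GFP and 12.4 and 12.1 with E47-ER at 4 h, and at 3.49 and 3.73 against 14.6 and 13.9 CPM at 16 h. Both E47-ER groups had libraries close to each other, and GFP 16 h replicate 2 was only 0.09 above its partner on the log2 scale. The log2 fold changes were 2.12 (SE 0.214) and 1.99 (SE 0.218), and 2.02 (SE 0.247) without that library. Of its 9341 exon bases, 149 overlap Gm7457 on the opposite strand, and whether the counting used strand is not given, so reads over those bases cannot be assigned.

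Ccno (ENSMUSG00000042417, chr13:112987802-112990777, plus strand) encodes cyclin O, an atypical cyclin known for centriole amplification in multiciliated cells. It stood at 12.4 and 14.1 CPM with GFP and 46.5 and 58.6 with E47-ER at 4 h. At 16 h the values were 9.14 and 18.5 against 39.3 and 56.4 CPM. GFP 16 h replicate 2 was again the highest GFP library. The log2 fold change was 1.99 (SE 0.317) at 4 h and 1.83 (SE 0.325) at 16 h, and 2.38 (SE 0.247) at 16 h without it. In E47-ER cells the 16 h mean was 0.911 times the 4 h mean.

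**Figure D2:**
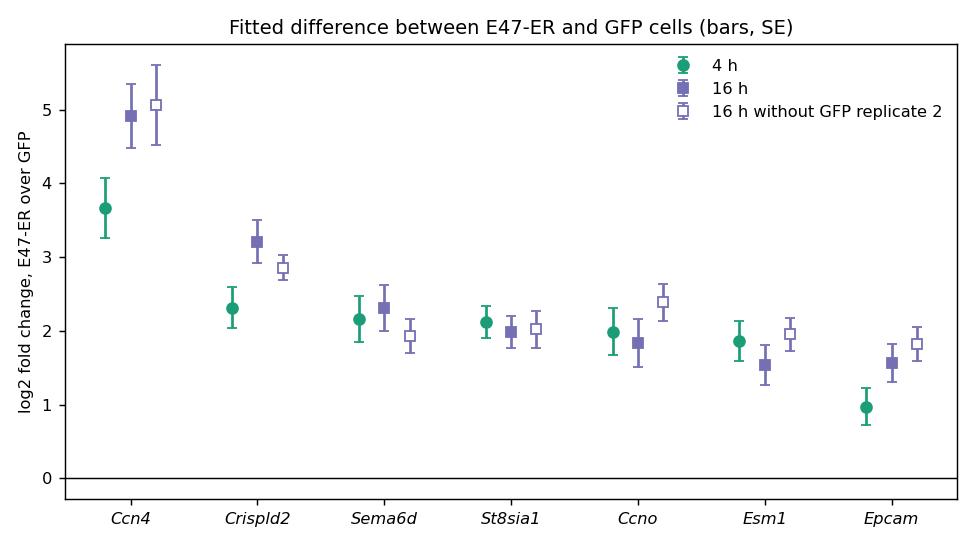
Log2 fold change of E47-ER over GFP for the 7 genes at 4 h and at 16 h, and at 16 h without GFP 16 h replicate 2. Circles are 4 h, filled squares 16 h, open squares 16 h without that library, and bars are 1 SE. Ccn4 reaches 4.92 at 16 h and Epcam has the lowest value at 4 h, 0.97, and the points are given as description because the genes were chosen on them.

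Levels of different genes were compared per kilobase of exon (RPKM, here CPM divided by exon length in kilobases). Esm1 had the highest level in all 4 groups, 14.7 and 18.1 RPKM in GFP cells at 4 and 16 h and 53.8 and 52.2 in E47-ER cells. Ccn4 had the lowest, 0.0465 and 0.0420 RPKM with GFP and 0.606 and 1.26 with E47-ER. In E47-ER cells at 4 h the order between them was Ccno with 20.6, Crispld2 with 14.03, Epcam with 5.48, St8sia1 with 1.31 and Sema6d with 1.15 RPKM, and only the last 2 overlapped between libraries. At 16 h Crispld2, with 23.97 RPKM, stood above Ccno, with 18.73, and no neighbours in the order overlapped. In GFP cells at 4 h Crispld2 and Epcam overlapped, with 2.83 and 2.78 RPKM, as did St8sia1 and Sema6d. In GFP cells at 16 h Ccno, Epcam and Crispld2 overlapped as neighbours, with 5.41, 3.36 and 2.52 RPKM, and St8sia1 and Sema6d did so again.

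The mean time difference, 16 h against 4 h averaged over both transductions, is the comparison that the choice of genes did not use, although a rise in E47-ER cells alone also enters it. By edgeR's quasi-likelihood test none of the 7 passed it, and 0.0% of all tested genes did; 855 genes had an unadjusted p under 0.05, and DESeq2 called 5. Epcam had the largest value, a log2 difference of 0.53 (SE 0.182, adjusted p = 0.669), followed by Sema6d with 0.47 (SE 0.221, adjusted p = 0.669). Crispld2 was at 0.33, St8sia1 at 0.28, Ccn4 at 0.43, Esm1 at 0.12 and Ccno at -0.06, with adjusted p between 0.669 and 0.943 by the same test. Without GFP 16 h replicate 2 the values for Crispld2, 0.50 (adjusted p = 0.0264), and Sema6d, 0.65 (adjusted p = 0.0472), passed edgeR's test, with 150 genes called in all. That fit is no longer balanced, so its time difference is not independent of the E47-ER comparison. Without GFP 16 h replicate 1, Epcam passed with 0.66 (adjusted p = 0.00223) beside 4722 genes called, in a fit whose only GFP 16 h library is the one that stood apart. As a description, the ratio of the 16 h to the 4 h mean in E47-ER cells was over 1.4 for Ccn4 (2.09), Epcam (1.77), Crispld2 (1.71) and Sema6d (1.46) and closer to 1 for St8sia1 (1.16), Esm1 (0.970) and Ccno (0.911).

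The other genes of the pathways around the 7 were taken from 11 lists, which hold 153 distinct genes, 99 of them tested. The lists were chosen with earlier results of these data known, so their shares beside those of all genes are a description only. At 4 h 1 of the 99 was higher with E47-ER (1.01%, against 0.271% of all tested genes) and 0 were lower by edgeR's test; 9 and 8 had an unadjusted p under 0.05 (9.09% and 8.08%, against 3.43% and 2.39% of all genes), and DESeq2 called 3 higher and 0 lower (3.03% and 0.0%, against 0.696% and 0.103%). At 16 h 5 were higher (5.05%, against 1.25%) and 0 lower; 18 and 13 had an unadjusted p under 0.05 (18.2% and 13.1%, against 10.4% and 13.6% of all genes), and DESeq2 called 9 and 3 (9.09% and 3.03%, against 3.02% and 3.9%). Their median log2 fold change was 0.07 at 4 h and 0.14 at 16 h, beside 0.00 and -0.01 over all tested genes. Without GFP 16 h replicate 2, which raised the number of calls over all genes as well, 9 were higher and 5 lower of 102 at 4 h (2.64% and 1.68% of all genes) and 11 higher and 10 lower at 16 h (4.39% and 4.53%).

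Among the genes that build gangliosides, 13 of 16 were tested and Ugcg, which makes glucosylceramide at the start of the pathway, was called. It was higher with E47-ER at 16 h, from a mean of 129 to 209 CPM, with a log2 fold change of 0.70 (SE 0.124, adjusted p = 0.0356 in edgeR), while at 4 h the value was 0.46 (adjusted p = 0.421). In the fit without GFP 16 h replicate 2, it passed at both times, at 0.46 (adjusted p = 8.82e-04) and 0.68 (adjusted p = 9.59e-05). St3gal5, which makes the GM3 that St8sia1 uses, went from 18.1 to 25.2 CPM at 16 h, a difference of 0.46 that did not pass (adjusted p = 0.284), and was at 0.20 (adjusted p = 0.612) without that library. B4galnt1, which turns GM3 and GD3 into longer chains, was at 0.31 and 0.35 and did not pass; without that library it passed at 4 h, at 0.32 (adjusted p = 0.0404), and was at 0.20 (adjusted p = 0.291) at 16 h. B4galt5, the lactosylceramide synthase, was at -0.21 at 16 h (adjusted p = 0.442) and fell without that library, at -0.38 (adjusted p = 0.0294). Of the 10 genes of ganglioside breakdown 0 were called at either time by edgeR's test; the most abundant, Gm2a and Psap, were at -0.06 and 0.29 at 4 h and 0.05 and 0.43 at 16 h. With GFP 16 h replicate 2 left out, Psap was higher at 16 h, at 0.48 (adjusted p = 0.00631), and Glb1 lower, at -0.32 (adjusted p = 0.0436). Of the 9 tested among 14 other sialic acid genes, St6gal1, which puts sialic acid on N-glycans, was higher at 16 h, from 2.07 to 6.88 CPM. At 4 h its log2 fold change was 0.92, which did not pass with all libraries (adjusted p = 0.476 by edgeR's test). Without GFP 16 h replicate 2 the 4 h value was 0.92 too. At 16 h St6gal1 was at 1.70 (adjusted p = 0.0271), and at 1.59 without GFP 16 h replicate 2. St3gal6 was at -0.83 (adjusted p = 0.114) and fell without that library, at -0.68 (adjusted p = 0.0288). St6gal1 shares 200 exon bases with BC106179 on the opposite strand, St3gal6 1603 of its 6172 with Dcbld2 and B4galnt1 715 of its 3454 with Slc26a10. Reads over those bases cannot be assigned, since the strand setting is not given.

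Among 14 tested semaphorins of 19, Sema7a, a GPI-anchored semaphorin, was higher at both times. Its means were 26.2 and 62.8 CPM at 4 h and 25.2 and 50.0 CPM at 16 h, with log2 fold changes of 1.26 (SE 0.160, adjusted p = 0.0307 by edgeR's test) and 0.98 (SE 0.162, adjusted p = 0.0275), and 0.95 (adjusted p = 1.63e-04) at 16 h without GFP 16 h replicate 2. Other semaphorins had values below 0: Sema6b was at -0.77 and -0.63 and Sema3e at -0.34 and -0.49, and neither passed. Without that library Sema6b was lower at both times (adjusted p = 0.0123 and 0.0179), Sema3e was lower at 16 h (adjusted p = 0.0153) and Sema4a was higher at both (adjusted p = 0.0183 and 0.0134). In that fit 2 semaphorins were higher and 2 lower at 16 h. Sema4d, the semaphorin with the highest CPM, was at 0.34 and 0.39 and did not pass (adjusted p = 0.820 and 0.168; 0.0105 and 0.0952 without that library). Of 10 tested semaphorin receptors among 15, the neuropilin Nrp2 was higher at 16 h, from 6.26 to 13.5 CPM. At 4 h its log2 fold change was 1.15, which did not pass with all libraries (adjusted p = 0.0608 by edgeR's test). Without GFP 16 h replicate 2 the 4 h value was 1.15 too. At 16 h Nrp2 was at 1.08 (adjusted p = 0.0349), and at 0.90 without GFP 16 h replicate 2. Plxnd1 was at 0.84 (adjusted p = 0.110) and passed without that library, at 0.57 (adjusted p = 0.00935). Plxna1, the receptor of Sema6d, was at 0.48 at 4 h and 0.47 at 16 h and did not pass (adjusted p = 0.9999 and 0.358), and was at 0.07 at 16 h without that library. Ugcg, St6gal1, Sema7a and Nrp2 were each called in 2 of the 8 fits without 1 library, again those without either GFP 16 h library, and their highest adjusted p at 16 h were 0.332, 0.291, 0.310 and 0.327.

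The families of the secreted genes were mostly near 0 counts in these cells. Of 5 other CCN genes only Ccn3 was tested, at 41.0 and 54.6 CPM at 16 h with a log2 difference of 0.41 that did not pass (adjusted p = 0.262), and Ccn5 had 0 counts. Of 13 other CAP genes 3 were tested, and Crispld1, the nearest relative of Crispld2, had 0 counts in every library. The most abundant, Glipr2 and Glipr1, were at -0.24 and -0.06 at 16 h and did not pass; without GFP 16 h replicate 2 Glipr2 was lower at 4 h, at -0.34 (adjusted p = 0.00944). Of 14 other secreted proteoglycans 5 were tested, led by Srgn, the granule proteoglycan, at 2750 to 3815 CPM. Srgn was at -0.04 at 16 h (adjusted p = 0.944) and at 0.60 (adjusted p = 4.83e-04) without GFP 16 h replicate 2. Of 9 tested Wnt targets among 16, Tcf7, the T lineage factor, was higher at 16 h, from 1.44 to 17.96 CPM. At 4 h its log2 fold change was 1.71, which did not pass with all libraries (adjusted p = 0.1265 by edgeR's test). Without GFP 16 h replicate 2 the 4 h value was 1.73. At 16 h Tcf7 was at 3.55 (adjusted p = 0.00414), and at 3.30 without GFP 16 h replicate 2. It was called in 7 of the 8 fits without 1 library and had an adjusted p of 0.0535 without E47-ER 16 h replicate 2. Axin2, the standard target of the canonical Wnt pathway, was at -0.40 at 4 h and 0.24 at 16 h and did not pass. Other targets had values below 0 without passing: Dkk1 was at -0.97 and -1.29 (adjusted p = 0.429 and 0.0657) and Myc at -0.80 and -0.31 (adjusted p = 0.359 and 0.358). Without that library both were lower at both times, Dkk1 with adjusted p of 1.64e-06 and 3.73e-04 and Myc with 1.03e-05 and 0.00256 in edgeR, so that 1 target was higher and 2 were lower at each time.

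Among 12 tested partners and processing genes of Epcam, 0 were called at 4 h or at 16 h by edgeR's test. Leaving out GFP 16 h replicate 2 changed the call of Fhl2 at 4 h and of Psen2 at 16 h. In that fit Fhl2 was at -0.70 at 4 h and 0.08 at 16 h, and Psen2 at -0.29 and -0.35. Ctnnb1, beta-catenin, was at 0.07 and 0.38 and Cd44, which binds Epcam in complexes, at 0.18 and -0.00. The protease gene Adam17, whose product cleaves Epcam, was at 0.18 and 0.39. Among 14 tested genes of the multiciliation programme around Ccno 0 were called as well; without that library 1 was higher at 4 h, and 1 higher and 2 lower at 16 h. Of these Cdc20b was the higher gene at each time, and Myb, at -0.86, and Trp73, at -0.49, the lower ones. E2f4, with the highest CPM, was at 0.15 and 0.26, and Cdk1 at -0.19 and -0.50. Foxj1 and Deup1, which define multiciliated cells, had 17 and 5 counts over all libraries and were not tested.

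**Figure D3:**
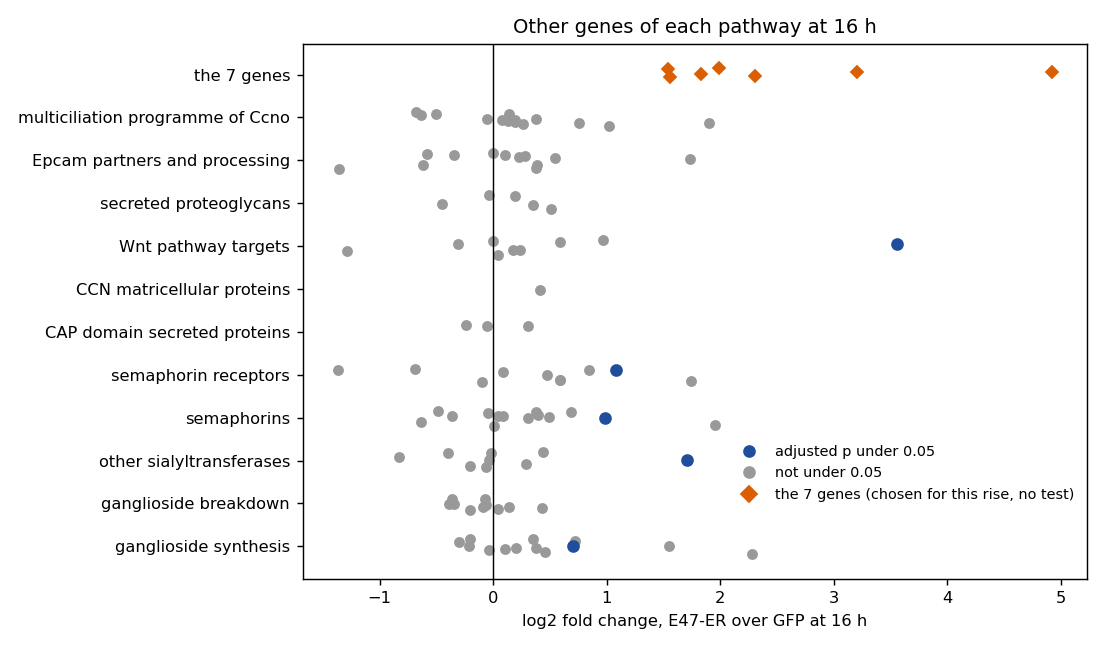
Log2 fold change of E47-ER over GFP at 16 h for the tested genes of the 11 pathway lists, 1 line per list, with points spread vertically only for legibility. Blue points have an edgeR adjusted p under 0.05 (Ugcg, St6gal1, Sema7a, Nrp2 and Tcf7, all above 0), grey points do not, and orange diamonds are the 7 genes, chosen for this rise.

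In the genome, Ccno and Esm1 lie on the plus strand of chromosome 13 with start sites 222 kb apart. Around all 7 genes, 47 other tested genes had their body within 500 kb, and Sla was the only one of them called by edgeR's test, at both times, where 0.271% and 1.25% of all tested genes were higher. DESeq2 called 2 and 4 of the 47 as higher (4.26% and 8.51%, against 0.696% and 3.02% of all genes). In the fit without GFP 16 h replicate 2, edgeR called 5 as higher at each time, where 2.64% and 4.39% of all genes were. Sla, at chr15:66780819-66831829 on the minus strand near Ccn4, encodes a Src-like adaptor that dampens antigen receptor signalling. Its level went from 168 to 358 CPM at 4 h and from 164 to 365 CPM at 16 h, with log2 fold changes of 1.09 (SE 0.147, adjusted p = 0.0330) and 1.16 (SE 0.148, adjusted p = 0.0118). It was called in 2 of 8 fits without 1 library at 4 h and 6 of 8 at 16 h. It lies inside the span of Tg on the other strand without sharing exon bases with it, and Tg was at 0.29 and 0.88 and did not pass (adjusted p = 0.9999 and 0.109). With GFP 16 h replicate 2 left out, Tg was higher at 16 h, at 1.22 (adjusted p = 1.48e-04), and Sla was at 1.33. Ndrg1, the nearest tested gene on the far side of Ccn4, was at 0.23 and -0.22. Of the nearest tested neighbours, those of Crispld2 (Zdhhc7 and Usp10), Sema6d (Slc24a5), St8sia1 (C2cd5 and Cmas) and Epcam (Calm2) lay between -0.08 for Slc24a5 and 0.08 for Zdhhc7 at 4 h, and between -0.35 for Calm2 and 0.58 for Slc24a5 at 16 h, and did not pass.

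Between Ccno and Esm1 lie, among others, Mcidas, Cdc20b, Gpx8 and Gzma. The span of Gzmk, on the opposite strand, encloses Esm1. Gzmk had 3 counts over all libraries and was not tested. Mcidas, a multiciliation regulator whose start site is 6.04 kb from that of Ccno, had 27 counts over all libraries and was not tested. Its means were 0.0264 and 0.436 CPM at 4 h and 0.0666 and 0.373 CPM at 16 h. Cdc20b, 47.3 kb from Ccno, was at 1.28 at 4 h (adjusted p = 0.350 by edgeR's test) and 1.90 at 16 h (adjusted p = 0.0524). Gpx8, a peroxidase gene 58.6 kb from Ccno and named after its values were seen, was at 1.23 (adjusted p = 0.172) and 0.97 (adjusted p = 0.114). Gzma, the granzyme A gene, had means of 3261 and 6578 CPM at 4 h and 5190 and 7134 CPM at 16 h, with log2 differences of 1.01 (adjusted p = 0.800) and 0.46 (adjusted p = 0.480). So none of the tested genes between them passed with all libraries. In the fit without GFP 16 h replicate 2, edgeR's adjusted p for Cdc20b was 0.00898 and 0.00927 and for Gpx8 1.38e-05 and 9.59e-05, while Gzma stayed at 0.148 and 0.103. On the other side of Ccno, Dhx29 was at 0.08 and 0.24 (adjusted p = 0.9999 and 0.557).

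**Figure D4:**
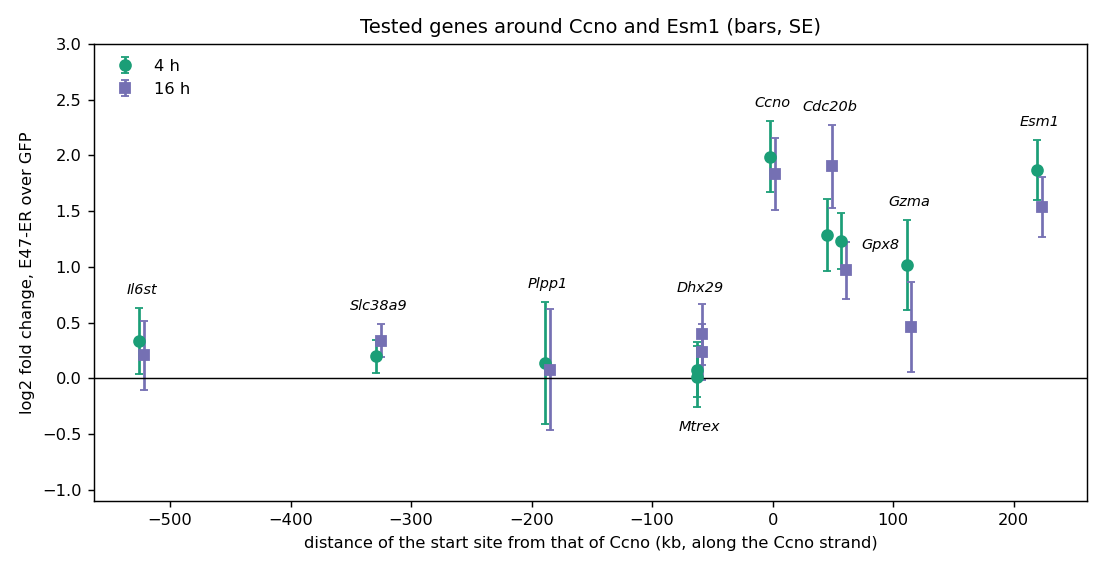
Log2 fold change of E47-ER over GFP for the tested genes around Ccno and Esm1 against the distance of their start sites from that of Ccno in kb; circles are 4 h, squares 16 h and bars 1 SE. Ccno and Esm1, 222 kb apart, were chosen for their rise; Cdc20b, Gpx8 and Gzma between them have values from 0.46 to 1.90, and Dhx29 on the other side lies near 0.

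Over the 8 libraries the log2 levels of Esm1 and Ccno had a Pearson correlation of 0.990, the highest among the 21 pairs of the 7 genes, and Sema6d and Ccno the lowest, 0.838. These points share groups and libraries, so the values describe these 8 libraries only. Within groups, replicate 2 was above replicate 1 in all 4 groups for both Esm1 and Ccno, by log2 ratios of 0.20, 0.48, 0.77 and 0.28 for Esm1 and 0.18, 0.34, 1.02 and 0.52 for Ccno. For Crispld2 replicate 2 was lower in 3 of the 4 groups. Epcam had log2 ratios of 0.47, 0.43, 0.56 and -0.12 in the same order of groups. Gzma was above in replicate 2 in all 4 groups as well. How many of all tested genes have this pattern was not counted.

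The 10 genes whose log2 levels over the 8 libraries were most like the mean of the 7 (Pearson correlation of 0.983 to 0.996) were Wnt10b, Tox2, Cdk20, Fam117a, Gm38158, Olfr523, Larp1, Esr1, Ppbp and Ctsl. Wnt10b, a Wnt ligand gene, had means of 0.195 and 5.13 CPM at 4 h and 0.268 and 11.4 CPM at 16 h. Tox2, an HMG-box factor gene, stood at 67.4 and 111 and at 71.5 and 130 CPM. Ctsl, the cathepsin L gene, stood at 30.9 and 261 and at 41.8 and 798 CPM, with part of its exon sequence shared with an antisense gene. Esr1 in this list counts the construct. Of the 10, 5 remained in the list without GFP 16 h replicate 2.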

How the data were processed

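The data were RNA-seq counts of 8 libraries, 4 groups of 2, as grouped by their labels. The values used are raw counts per Ensembl gene as deposited by the authors, without normalization. The submitters' processing notes name mm10 and DESeq2, with no role or version. Aligner, counter, strand setting and annotation were not given in the sources used here. Of 50686 gene IDs, 50462 matched GENCODE M21 (GRCm38), and 224 did not. Counts were fitted in R 4.3.3 with edgeR 4.0.16 (filterByExpr, minimum count 10; TMM; robust quasi-likelihood; 1 mean per group over all 8 libraries). P-values are two-sided and adjusted by Benjamini and Hochberg over the 13644 tested genes, with calls at 0.05. Each SE was derived from the fitted value and its F statistic. The pipeline was tested on simulated data. The 7 genes and all lists were chosen with earlier results of these data known. Named genes were the 7, up to 4 called genes per list and comparison, the 2 with the highest CPM in a list with none called, called and nearest neighbours within 500 kb, the 10 most alike, and the construct genes; other names were added to describe a pathway and their values were seen first. Alternatives were RLE scaling, a minimum count of 30, no filter, DESeq2 1.42.0, a replicate block and each library left out. The labels do not say whether replicate numbers pair libraries, and the main fit did not pair them. Deviations of libraries with the same number correlated between -0.0901 and 0.202, which cannot exclude pairing.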

Additional observations from a re-analysis of the deposited data

How the results depend on the processing

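All 7 genes kept a positive E47-ER against GFP value at both times in every fit run. They were chosen for this rise in the same counts, so nothing is read from that. The number of genes called changed from fit to fit. At 4 h it was 39, and it was 165 with no filter and 109 with DESeq2; at 16 h it was 217, and it was 1816 with no filter and 944 with DESeq2. For the time difference it was 0, and it was 18 with no filter and 5 with DESeq2; for the difference of the E47-ER effect between times it was 0, and it was 53 with no filter. RLE scaling gave 42 and 215 and a minimum count of 30 gave 36 and 215 at 4 h and 16 h. Leaving out 1 library gave 1 to 619 genes at 4 h, 15 to 7022 at 16 h, 0 to 4722 for the time difference and 0 to 5124 for the difference of effects. The highest counts came without GFP 16 h replicate 1, and at 4 h 612 came without replicate 2. The lone library of a group was then assumed to vary like the other groups. With the replicate block 28 and 195 genes were called at 4 h and 16 h, and 0 in the other comparisons; with it Ugcg (adjusted p = 0.0580) and Nrp2 (0.0566) at 16 h and Sla at 4 h (0.0631) were no longer called by edgeR's test. Srgn, at -0.04 at 16 h, was at 0.60 without GFP 16 h replicate 2 and at -0.46 without replicate 1. The causes were not tested. Log2 fold changes over leave-one-out fits at 16 h ran from 2.86 to 3.79 for Crispld2, 1.93 to 3.08 for Sema6d, 1.40 to 2.38 for Ccno and 1.21 to 1.95 for Esm1. Ccn4, at 4.70 to 5.06, rests on 5 counts in GFP cells at 16 h.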

Other observations

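Among the tested genes that build gangliosides, described above, was also St6galnac5, a sialyltransferase. It had means of 0.655 and 1.70 CPM at 4 h and 1.10 and 4.84 CPM at 16 h in GFP and E47-ER cells. Its log2 difference at 16 h was 2.28 (adjusted p = 0.0983 in edgeR), and 2.98 (adjusted p = 5.33e-04) without GFP 16 h replicate 2. The 12 fibroblast and stromal markers summed to between 179 and 250 CPM with GFP and between 289 and 292 with E47-ER at 4 h, and to between 195 and 235 and between 349 and 358 CPM at 16 h. Thy1, which lymphocytes also express, made up nearly all of that sum, with means of 200 and 279 CPM at 4 h and 202 and 341 CPM at 16 h, and did not pass edgeR's test (adjusted p = 0.783 and 0.0977). Postn had 0 counts, and Col1a1 and Col1a2 had 40 and 52 counts over all libraries. The 15 ILC2 markers did not move in 1 direction. At 4 h edgeR called 0 of them, beside 0.286% of all genes. At 16 h, 4 were higher and 5 lower at an unadjusted p under 0.05 in edgeR, beside 10.4% and 13.6% of all genes. DESeq2 called 3 higher and 3 lower, beside 3.02% and 3.9% of all genes. By adjusted p, edgeR called 1 of them as higher with E47-ER at 16 h, where 1.25% of all genes were, and 0 as lower. The higher one was the factor gene Rora, with a log2 fold change of 1.004 (adjusted p = 0.0139), which was called in 4 of 8 fits without 1 library. Values below 0 that did not pass were those of Il5 (-0.83), Il13 (-0.65), Areg (-0.96) and Il2ra (-0.45). Without GFP 16 h replicate 2, 4 were higher and 3 lower, where 4.39% and 4.53% of all genes were. The lower 3 were Il5 (adjusted p = 0.00531), Il13 (8.34e-04) and Il2ra (8.14e-04), and the higher 4 were Rora, Id2, Il17rb and Ptger2.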
